A study of Homo sapiens with 12 samples.

Results

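The genes described here are those whose RNA level changed with Hypnea musciformis extract (HME) over 2 human cancer cell lines together and moved in the same direction in each of them. A gene was taken when the HME effect, fitted over both lines with the cell line as an additive term, had an adjusted p-value under 0.05 and the fitted change had the same sign in HepG2 and in Ls174. Of 13040 genes tested, 423 (3.24%) had such an HME effect and 388 of these moved the same way in both lines, 207 higher (1.59% of the genes tested) and 181 lower (1.39%). The remaining 35 comprised 14 genes with no count in Ls174, 5 with no count in HepG2 and 16 with opposite signs. HepG2 is an established line from a human liver carcinoma and Ls174 an established line from a human colon cancer, and both are wild type per the labels. Each line was sampled as 3 untreated controls and as 3 cultures given HME, an extract of a red seaweed, at 0.7 mg/ml per the labels, with 24 h as the time point of all 12 libraries. The study's methods give a slightly higher concentration, and which was used cannot be settled here. Each line is a single cell line grown in culture, and the sources used here give the dose for both lines together. Library totals ran from 1790841 to 3656662 counts.

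Cells meet chemical stress with a small number of transcription programmes. NRF2 is a transcription factor that is held back by KEAP1 and, when electrophiles or oxidants modify KEAP1, turns on enzymes that make glutathione, reduce quinones and carbonyls, and handle haem and iron. ATF4 is a factor whose own mRNA is translated better when translation at large is reduced, and it turns on amino acid synthesis and transport genes. MAP kinase signalling raises immediate-early genes such as FOS and EGR1 and then its own inhibitors, the dual-specificity phosphatases, while NF-kB raises chemokines and its own inhibitor NFKBIA. Secreted and membrane proteins are folded and glycosylated in the endoplasmic reticulum (ER) before they reach the surface or the extracellular matrix.

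The 2 lines carried the markers of their origin. The summed level of 13 liver markers was 28900 to 32200 CPM (the count divided by the TMM-scaled library total in megareads) in HepG2 controls and 19000 to 23000 CPM with HME, against at most 240 CPM in any Ls174 library. The 13 colon markers summed to 573 to 764 CPM in Ls174 and to at most 222 CPM in HepG2. In 1 library, HepG2 HME 2, 10 mesenchymal markers summed to 991 CPM, against at most 207 CPM in the other HepG2 libraries, and 9 blood markers to 1050 CPM, against at most 734 CPM, with PTPRC, the marker of all white blood cells, at 0 in every library. Single markers stood out more than these sums. SRGN had 2277 counts in HepG2 HME 2 and 0 in every other library. COL1A1 had 1560 counts there, COL1A2 1153 and VIM 172, against at most 15, 12 and 3 in the other HepG2 libraries. None of these markers is among the 388 genes, and of 5 endothelial markers KDR, PECAM1 and TEK were at 0. HepG2 control 2 and Ls174 control 1 stood apart from the other controls of their line, with a mean of the median absolute log2 difference of 0.728 and 0.663, against 0.540 to 0.545 and 0.439 to 0.449. Without HepG2 HME 2, 179 of the 388 genes were still called, and without both deviating controls 365 were. In bulk RNA, more cells of a type and more RNA per cell cannot be told apart. The part of these libraries and markers in the results was not tested beyond these values.

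The shared genes that rose changed more in HepG2, whereas those that fell had similar median changes in both lines. Among the 207 higher genes, the median log2 fold change was 1.80 over both lines, 2.27 in HepG2 and 1.22 in Ls174, and 168 had the larger change in HepG2 (121 of the 149 that passed a filter on low counts in each line). Their median level went from 11.2 to 81.6 CPM in HepG2 and from 10.6 to 23.8 CPM in Ls174. Among the 181 lower genes the medians were −1.31 over both lines, −1.31 in HepG2 and −1.41 in Ls174, and 77 had the larger change in HepG2. Their median level went from 48.2 to 19.0 CPM in HepG2 and from 33.7 to 12.8 CPM in Ls174. Over all genes tested the medians were −0.05, −0.07 and 0.00.

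**Figure D1:**
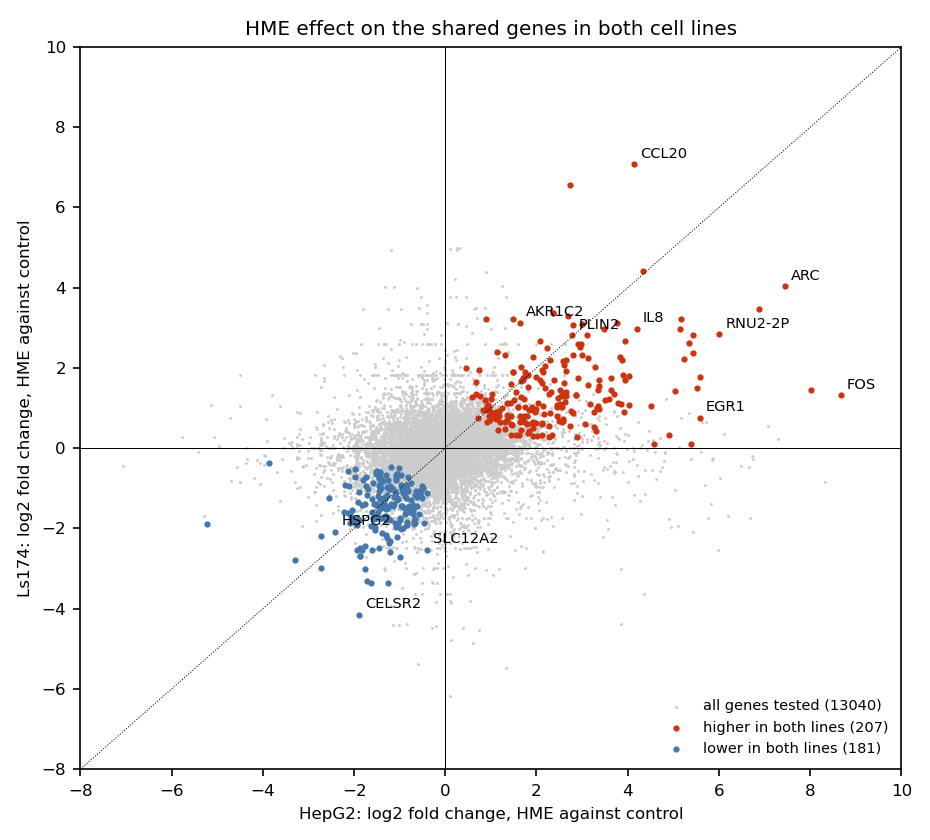
Log2 fold change with HME in HepG2 (x axis) against Ls174 (y axis), 1 point per tested gene, with the shared higher and lower genes coloured. The higher genes lie mostly below the diagonal of equal change (168 of 207 changed more in HepG2), and the lower genes lie on both sides of it (77 of 181).

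Tested within each line alone, 228 of the 388 genes passed an adjusted p of 0.05 in HepG2 (6.19% of all genes did), 52 passed in Ls174 (0.767% of all genes), 22 passed in both and 130 in neither. The 3 HME values lay entirely above or entirely below the 3 control values in both lines for 287 of the 388 genes (74.0%, against 5.28% of all genes tested). Both sets of counts use the contrast that chose the genes, which fixes an excess over all genes, so they describe the genes and support nothing. A filter on low counts applied to each line by itself kept 299 of the genes in both lines, 67 in HepG2 only, 17 in Ls174 only and 5 in neither, so 89 genes rest on low counts in at least 1 line. The genes nearest the limit were LBR (adjusted p = 0.0494) and RP11-132A1.4 (0.0496) on the inside, and TXNRD1, HNRNPA2B1 and CD55 (each 0.0501) on the outside. With libraries scaled by their totals alone, 165 genes were higher and 309 lower (34.8% higher, against 53.4% with TMM scaling), and the median of all genes moved from −0.05 to −0.14.

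The difference of the HME effect between the lines was tested by an interaction term that the choice of genes did not use, apart from the shared sign. The term was fitted on the same counts as that choice, so its share among the chosen genes is a description only. It passed an adjusted p of 0.05 for 12 of the 388 genes (3.09%, against 0.644% of all genes tested), of which 11 were higher genes with the larger change in HepG2. Before treatment, 192 of the 388 genes (49.5%, against 35.5% of all genes tested) differed between HepG2 and Ls174, 122 with the higher level in HepG2 and 70 in Ls174. The shared response therefore often started from unequal levels. PLIN2, for example, was higher in untreated HepG2 by 3.09 on the log2 scale, and PCK1 was higher in untreated Ls174 (log2 difference HepG2 minus Ls174 of −4.11).

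PLIN2, which encodes the coat protein of lipid droplets, had the lowest adjusted p of all. Its level in HepG2 was 468, 326 and 547 CPM in the controls and 3270, 3030 and 2890 CPM with HME. In Ls174 it was 38.4, 54.3 and 64.3 CPM in the controls and 430, 339 and 340 CPM with HME. Treated and control libraries were far apart in both lines, and the rise was almost the same on the log2 scale, 2.78 ± 0.31 (SE) in HepG2 and 2.82 ± 0.31 in Ls174 (over both lines 2.80 ± 0.22, adjusted p = 1.16e-05). PLIN2 was counted in 6 regions, and 92.4% of its counts came from 1 of them, chr9:19115563-19116245 on the minus strand (GRCh37), 71.3% of which is annotated as UTR. CPT1A, which carries fatty acids into mitochondria, rose as well (1.35 ± 0.24, adjusted p = 0.00777), while the synthesis genes FASN, SCD and the desaturase FADS2 fell (−0.84, −0.74 and −1.30). Of 19 genes of fatty acid synthesis and storage tested, 2 rose and 3 fell. PLIN2, CPT1A and FADS2 kept their call in each of the 12 fits that left out 1 library, and FASN and SCD lost theirs without any one of the treated HepG2 libraries, HepG2 control 3, Ls174 HME 2 or Ls174 HME 3 (adjusted p of SCD up to 0.0925). SCD kept its call only without HepG2 control 2.

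**Figure D2:**
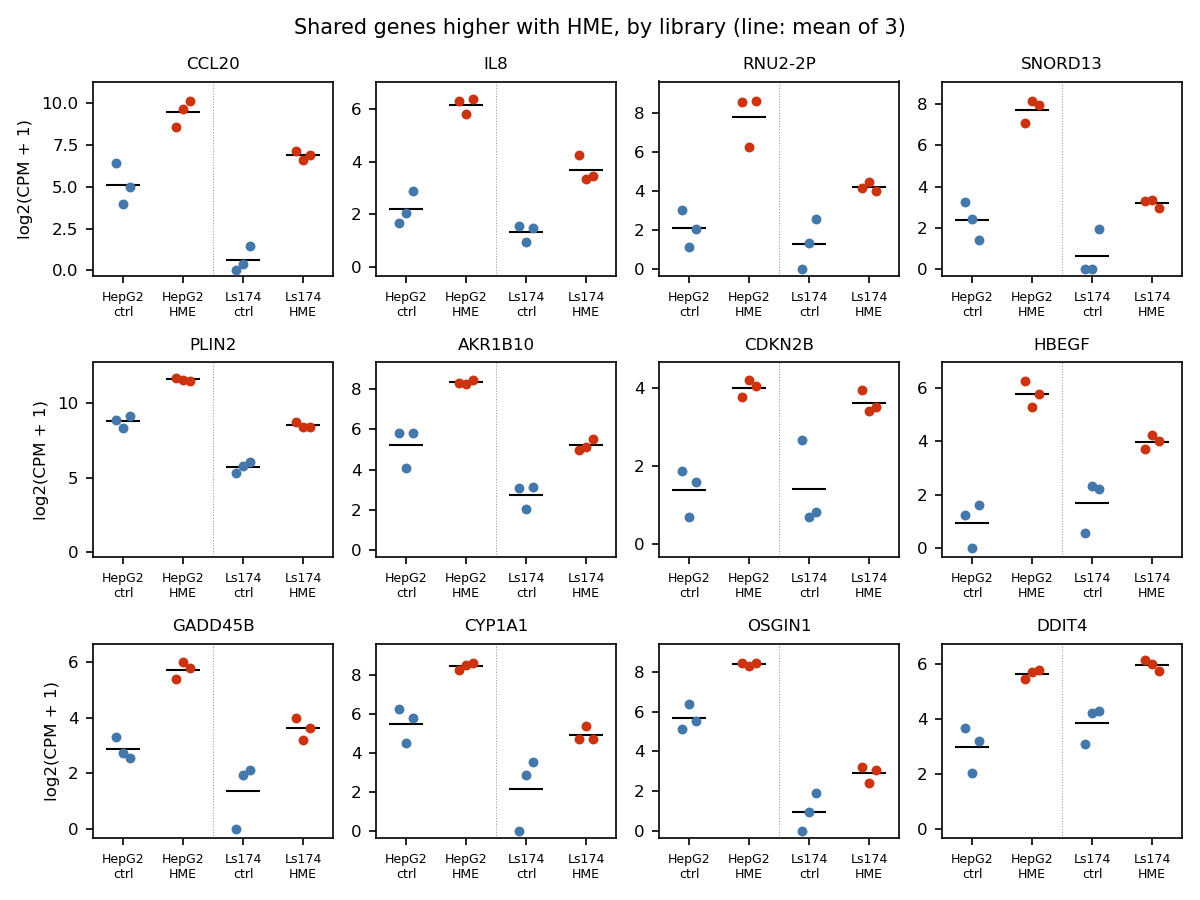
Level of 12 shared higher genes, as log2(CPM + 1) on the y axis, in each library of the 4 groups on the x axis (blue, control, red, HME; points, libraries; line, mean of 3). In every panel the 3 HME points lie above the 3 control points in both lines, for instance PLIN2 at 2890 to 3270 CPM against 326 to 547 CPM in HepG2. The genes were picked among those apart in both lines, so this separation was fixed by the choice.

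The chemokine genes CCL20, IL8 and CXCL2 rose in both lines. CCL20, which attracts CCR6-bearing lymphocytes and dendritic cells, stood at 84.7, 15 and 30.7 CPM in HepG2 controls and at 376, 815 and 1140 CPM with HME. In Ls174 controls it was almost silent at 0, 0.310 and 1.79 CPM and reached 141, 97.1 and 120 CPM with HME. The groups did not overlap in either line, and the change over both lines was 5.14 ± 0.61 on the log2 scale (adjusted p = 0.000661). IL8, the main attractant of neutrophils, went from 2.15, 3.11 and 6.47 CPM to 78.0, 55.5 and 81.7 CPM in HepG2, and from 1.97, 0.931 and 1.79 CPM to 18.2, 9.25 and 9.86 CPM in Ls174. Its lowest treated library was above its highest control in each line (3.69 ± 0.37, adjusted p = 0.000145). CXCL2, a further neutrophil attractant, rose by 2.98 ± 0.42 (adjusted p = 0.00198) from at most 2.02 CPM in HepG2 controls and at most 5.28 CPM in Ls174 controls.

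The inhibitor NFKBIA rose from 245, 67.9 and 217 CPM to 1050, 994 and 1050 CPM in HepG2, while in Ls174 it went from 10.3, 66.7 and 70.7 CPM to 132, 114 and 122 CPM (over both lines 1.93 ± 0.42, adjusted p = 0.0222). The difference between the lines did not pass the interaction test (adjusted p = 0.523). CXCL1 rose in Ls174 (4.94, adjusted p = 0.0183 in that line alone) and is not among the shared genes (adjusted p over both lines 0.0523), with hardly any reads in HepG2, at most 3.11 CPM in 1 control and 0.601 CPM with HME, which gives no direction there. Of 22 genes of NF-kB subunits, inhibitors and chemokines tested, 5 rose (the 4 named and TNFAIP2, adjusted p = 0.0460) and none fell, with a median of 0.89 against −0.05 over all genes. CCL20, IL8 and CXCL2 kept their call in all fits that left out 1 library, NFKBIA lost it in 2 of them (adjusted p up to 0.0590) and TNFAIP2 in 11 (up to 0.130).

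The promoters of these genes hold matches to the AP-1 motif TGANTCA or to the NF-kB consensus, and they are shown because CCL20 and IL8 had the largest changes, by the smaller of the 2 lines, among the higher genes that passed a filter on low counts and were apart in both lines. The stretches are from RefSeq (GRCh38.p14) and lie within the 250 bases before the annotated start, with the match in capitals. They are located at chr4:73740421-73740450 (plus strand, IL8, AP-1), chr2:227813753-227813782 (plus strand, CCL20, NF-kB), chr4:74099254-74099283 (minus strand, CXCL2, NF-kB) and chr14:35404811-35404840 (minus strand, NFKBIA, NF-kB).
IL8: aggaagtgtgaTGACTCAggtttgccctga
CCL20: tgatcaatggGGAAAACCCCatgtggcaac
CXCL2: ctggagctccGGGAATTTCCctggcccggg
NFKBIA: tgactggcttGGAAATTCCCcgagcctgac
Searched on both strands, the AP-1 motif was present in 6 of 130 higher genes with a promoter in the table (4.62%), in 5 of 140 lower genes (3.57%) and in 334 of 9342 tested genes (3.58%), with a promoter that several genes share counted once. The NF-kB consensus was present in 7 higher, 7 lower and 552 tested genes of the same sets (5.38% of the higher and 5.91% of the tested).

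NRF2 targets formed the list with the most shared genes. Of 29 tested, 14 rose and none fell, and the median change was 0.93 over both lines, 0.93 in HepG2 and 0.97 in Ls174. GCLC and GCLM, the catalytic and the modifier subunit of the enzyme that limits glutathione synthesis, rose together. GCLC went from 47.9, 36.1 and 46.5 CPM to 275, 192 and 253 CPM in HepG2 and from 31.5, 45.3 and 41.2 CPM to 102, 71.8 and 67.0 CPM in Ls174, with no overlap in either line (1.74 ± 0.28, adjusted p = 0.00347). GCLM rose by 1.60 ± 0.31 (adjusted p = 0.0121), and SLC7A11, which imports cystine for the same pathway, by 1.49 ± 0.30 (adjusted p = 0.0143). SRXN1, which repairs over-oxidised peroxiredoxins, rose by 2.10 ± 0.33 (adjusted p = 0.00284), but its reads are also listed for a second, overlapping gene. HMOX1, haem oxygenase, was at 101, 58.6 and 86.9 CPM in HepG2 controls and at 458, 830 and 859 CPM with HME. In Ls174 it stayed low, at 0.492, 3.72 and 3.33 CPM in the controls and 6.92, 6.40 and 11.2 CPM with HME, without overlap (over both lines 2.54 ± 0.38, adjusted p = 0.00269).

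The aldo-keto reductases, which reduce aldehydes and ketones, were among the most strongly raised of these targets. AKR1B10 stood at 55.1, 16.2 and 55.0 CPM in HepG2 controls and 314, 305 and 353 CPM with HME, and at 7.38, 3.10 and 7.68 CPM in Ls174 controls and 30.6, 34.1 and 44.4 CPM with HME. The groups were apart in both lines (2.77 ± 0.31, adjusted p = 0.000413). AKR1C1 and AKR1C2 had larger changes by value in Ls174 (2.39 against 1.14, and 3.13 against 1.64), unlike most higher genes, but the interaction of AKR1C1 did not pass (adjusted p = 0.301). These reductases are close in sequence, so reads may be split between them and their separate values are uncertain. NQO1, a quinone reductase, rose by 0.93 ± 0.20 (adjusted p = 0.0210), with 658, 589 and 963 CPM in HepG2 controls and 1220 to 1660 CPM with HME. OSGIN1 rose by 2.49 ± 0.37 (adjusted p = 0.00251), and TALDO1, FTL and PIR were the other shared genes of the list beside AKR1C3. TXNRD1, ME1 and GSR missed the limit narrowly, with adjusted p of 0.0501, 0.0527 and 0.0531. Without HepG2 HME 2, 12 of the list were called, and without both deviating controls 19 were. In the fits that left out 1 library 10 of the 14 kept their call, and leaving out Ls174 HME 2 lost 4 (adjusted p of PIR up to 0.0764).

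A stretch of the GCLM promoter (GRCh38.p14, chr1:93909445-93909474, minus strand) holds a match to the core of the antioxidant response element, TGACNNNGC, on its reverse strand, and the OSGIN1 promoter (chr16:83953132-83953161, plus strand) holds the AP-1 motif, again in capitals. They are shown as 2 targets of the list with a match before their start.
GCLM: tacgatttctGCTTAGTCAttgtcttccag
OSGIN1: cgggcccctgcTGACTCAcgcttatgaaag
The element core was present in 8.46% of higher, 10.7% of lower and 12% of all tested genes with a promoter. The core and the AP-1 motif share the letters TGAC, so both can match the same bases.

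ATF4 targets rose with a like share. Of 25 genes of the ATF4 and CHOP list tested, 11 rose and none fell, with a median of 0.98 over both lines, 1.25 in HepG2 and 0.97 in Ls174. ATF4 itself rose from 395, 287 and 554 CPM to 1160, 1050 and 724 CPM in HepG2 and from 682, 435 and 427 CPM to 720, 1270 and 1110 CPM in Ls174, so that treated and control libraries were apart although 1 treated library in Ls174 was close to the highest control (1.13 ± 0.24, adjusted p = 0.0200). TRIB3, a pseudokinase that ATF4 induces, rose by 1.36 ± 0.26 in HepG2 and 1.13 ± 0.26 in Ls174 (over both 1.25 ± 0.19, adjusted p = 0.00269). DDIT4, an inhibitor of mTORC1, went from 11.8, 3.11 and 8.08 CPM to 42.7, 50.6 and 54.1 CPM in HepG2 and from 7.38, 17.4 and 18.4 CPM to 70.0, 63.3 and 52.2 CPM in Ls174 (2.33 ± 0.30, adjusted p = 0.00107). MTHFD2, a mitochondrial enzyme of folate metabolism, rose by 1.31 ± 0.21 (adjusted p = 0.00348), and SESN2, which senses leucine and restrains mTORC1, by 0.98 ± 0.19 (adjusted p = 0.0120).

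PPP1R15A, which directs the dephosphorylation of eIF2α, rose by 2.54 ± 0.63 (adjusted p = 0.0391), mainly in HepG2 by value. ASNS, asparagine synthetase, rose by 1.18 ± 0.30 (adjusted p = 0.0433), and its lowest treated library in HepG2, at 158 CPM, was just above its highest control, at 150 CPM. CTH and NUPR1 were the other shared genes of the list beside ATF3 and SLC7A11. In the fits that left out 1 library 6 of the 11 kept their call (ATF3, DDIT4, MTHFD2, SESN2, SLC7A11 and TRIB3), and leaving out HepG2 HME 1, HepG2 control 3 or Ls174 HME 2 lost 4, with an adjusted p of CTH of up to 0.111. Without HepG2 HME 2, 8 of the list were called, and without both deviating controls 14. Among aminoacyl-tRNA synthetases, which charge tRNAs and are partly under ATF4, CARS, GARS and MARS rose of 20 tested (0.94, 1.31 and 1.01), although 98.3% of the counts of MARS lie in regions that overlap DDIT3 on the other strand. CARS kept its call without any 1 library, and MARS and GARS did not (adjusted p of MARS up to 0.0696).

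Stretches of the ASNS promoter (GRCh38.p14, chr7:97872458-97872487, minus strand) and of the ATF3 promoter (chr1:212565205-212565234, plus strand) hold the ATF4-C/EBP element TGATGNAA, in capitals, and are shown because both genes are on the list.
ASNS: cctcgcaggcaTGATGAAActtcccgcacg
ATF3: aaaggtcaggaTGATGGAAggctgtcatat
That element was present in 5 of the 130 higher genes (3.85%), in 1 of the 140 lower genes (0.714%) and in 1.36% of all tested genes with a promoter.

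Of 26 AP-1 and immediate-early genes tested, 7 rose and none fell, with a median of 2.74 in HepG2 and 0.21 in Ls174. In both lines 15 were positive, against 3517 of all 13040 genes tested. For EGR1, IER3 and ATF3 the rise was larger in HepG2 by the interaction test. EGR1, a zinc finger factor of the growth response, went from 5.38, 4.36 and 1.21 CPM to 168, 189 and 182 CPM in HepG2, but in Ls174 only from 11.8, 17.7 and 16.4 CPM to 23.7, 23.1 and 31.5 CPM. Treated and control libraries were apart in both lines, and the change was smaller in Ls174 by 4.82 on the log2 scale (interaction, adjusted p = 0.00061). IER3, an early response gene, went from 82.5, 53.6 and 80.4 CPM to 3090, 3540 and 3760 CPM in HepG2 and from 148, 331 and 326 CPM to 1050, 860 and 850 CPM in Ls174. Both lines passed the test alone (5.58 ± 0.40, adjusted p = 4.83e-06, and 1.78 ± 0.34, adjusted p = 0.0284), and the difference between them passed too (adjusted p = 0.00143).

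FOS had no count in the 3 HepG2 controls and rose there to 21.8, 17.3 and 16.8 CPM under HME, which is at least 48.4-fold above a floor of 3 counts over the group. In Ls174 it was at most 1.54 CPM in the controls and 1.42 to 2.19 CPM with HME, so these ranges overlapped. JUN, its partner in AP-1, rose by 2.55 ± 0.61 (adjusted p = 0.0352), ATF3 by 3.73 ± 0.72 (adjusted p = 0.0127) and MAFF by 2.12 ± 0.41 (adjusted p = 0.0127). ARC had no count in any control. Treated libraries exceeded the same floor at least 21.1-fold in HepG2 and at least 2.2-fold in Ls174, where 1 of 3 treated libraries was also at 0. ARC, ATF3, IER3 and MAFF kept their call without any 1 library. EGR1, FOS and JUN lost theirs without any one of the treated HepG2 libraries, HepG2 control 1 or HepG2 control 3. Some of these 3 also lost it without other libraries (adjusted p of EGR1 up to 0.104, without HepG2 control 1). Without HepG2 HME 2, 4 of the list were called, and without both deviating controls 10.

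Of 16 MAPK feedback inhibitors tested, 6 rose and none fell (median 2.45 in HepG2, 0.39 in Ls174). DUSP4, a nuclear MAP kinase phosphatase, was lower in HepG2 controls (0.538, 1.25 and 2.83 CPM) than in Ls174 controls (33.4, 21.4 and 27.1 CPM) and rose in both, to 13.5, 6.36 and 7.21 CPM and to 70.3, 70.4 and 71.6 CPM (1.78 ± 0.33, adjusted p = 0.00998). DUSP6, the ERK phosphatase of the cytoplasm, rose by 1.62 ± 0.39 (adjusted p = 0.0350), and ERRFI1, an inhibitor of the EGF receptor, by 2.09 ± 0.37 (adjusted p = 0.00740). DUSP8 and DUSP10, which act mainly on JNK and p38, were at low levels and rose by 1.95 and 2.87 (adjusted p = 0.0270 and 0.0195). DUSP1 had 3.67 in HepG2 and −0.34 in Ls174 and is not among the shared genes. DUSP4, ERRFI1 and IER3 kept their call without any 1 library, and DUSP6, DUSP8 and DUSP10 lost it without HepG2 HME 2 or 3. Some of the last 3 also lost it without other libraries (adjusted p of DUSP6 up to 0.0864).

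The EGR1 promoter (GRCh38.p14, plus strand) holds 2 matches to the serum response (CArG) consensus, at chr5:138465364-138465393 and chr5:138465386-138465415, shown in capitals because EGR1 had the lowest adjusted p of the shared genes for a difference between the lines.
EGR1 first: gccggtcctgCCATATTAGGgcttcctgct
EGR1 second: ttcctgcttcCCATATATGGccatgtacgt
The consensus was present in 5 of the 130 higher genes (CYP1A1, FHL2, AQP3, GARS and EGR1, 3.85%), in 0.714% of lower genes and in 1.03% of all tested genes with a promoter. In CYP1A1 and AQP3 the match was the same, CCTATAAAGG, which holds the letters TATAAA, 34 bases before the start. Whether such matches act as serum response elements was not tested. The cyclic AMP response element TGACGTCA was present in 6.15%, 1.43% and 3.03%, the hypoxia core ACGTG in 17.7%, 23.6% and 23.9%, and the sterol element TCACNCCAC in 3.08%, 0% and 0.921%.

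Of 9 genes of EGF receptor ligands and receptors tested, 4 rose (HBEGF, AREG, AREGB and EREG) and 2 fell (ERBB2 and ERBB3). The ligands TGFA (0.85, adjusted p = 0.102) and EGF (0.02, adjusted p = 0.993) did not pass. HBEGF, a membrane-bound ligand that is released by shedding, went from 1.34, 0 and 2.02 CPM to 75.2, 38.2 and 54.1 CPM in HepG2 and from 0.492, 4.04 and 3.58 CPM to 12, 18.1 and 15.1 CPM in Ls174. It was apart in both lines (3.75 ± 0.57, adjusted p = 0.00269). AREG, amphiregulin, rose to like levels, from 9.68, 12.5 and 8.89 CPM to 32.1, 29.0 and 42.0 CPM in HepG2 and from 4.43, 10.9 and 16.4 CPM to 47.4, 35.6 and 40.1 CPM in Ls174 (1.83 ± 0.27, adjusted p = 0.00269). AREGB is a near-identical copy whose reads cannot be told from those of AREG with certainty. EREG, epiregulin, rose by 1.35 ± 0.33 (adjusted p = 0.0352). ERBB3 fell by 0.95 ± 0.23 (adjusted p = 0.0352) and ERBB2 by 1.19 ± 0.24 (adjusted p = 0.0181), with 79.9% of the ERBB2 counts in regions that overlap MIEN1 on the other strand. EGFR itself was at −0.74 over both lines (adjusted p = 0.302), with 0.30 in HepG2 and −2.02 in Ls174. HBEGF, AREG and AREGB kept their call without any 1 library. EREG, ERBB2 and ERBB3 were lost without Ls174 HME 2. EREG and ERBB3 were also lost without HepG2 HME 2, HepG2 HME 3, HepG2 control 1, Ls174 HME 1 or Ls174 HME 3, and each in further fits. The adjusted p of EREG rose to 0.0869 without HepG2 HME 3.

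Of the 28 p53 targets and of the 17 hypoxia targets tested, 3 rose in each list. Beside these, GDF15, CDKN2B, GADD45B and CYP1A1 rose over both lines. GDF15, a secreted stress cytokine, was abundant, at 568, 2050 and 615 CPM in HepG2 controls and 7040, 12500 and 11900 CPM with HME, and at 701, 411 and 352 CPM in Ls174 controls and 2120, 1630 and 2180 CPM with HME (2.65 ± 0.39, adjusted p = 0.00244). CDKN2B, an inhibitor of CDK4 and CDK6, rose by 2.74 ± 0.46 (adjusted p = 0.00569) from at most 5.41 CPM in any control. GADD45B, a stress gene of the growth arrest family, rose by 2.71 ± 0.39 (adjusted p = 0.00198). CDKN1A, which encodes p21, rose by 1.31 ± 0.32 (adjusted p = 0.0384), with 282, 108 and 407 CPM in HepG2 controls and 1130, 751 and 902 CPM with HME. Among the p53 targets CDKN1A, GADD45A and SESN2 rose and none fell, and the list median was 0.60 in HepG2 and −0.02 in Ls174 (2 rose and 1 fell with libraries scaled by their totals alone). SESN2 kept its call without any 1 library, and CDKN1A and GADD45A lost theirs without HepG2 HME 3 or HepG2 control 3, with an adjusted p of CDKN1A of up to 0.0866.

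CYP1A1, the dioxin-inducible cytochrome P450, went from 74.8, 21.8 and 55.0 CPM to 306, 361 and 399 CPM in HepG2 and from 0, 6.52 and 10.8 CPM to 25.9, 41.6 and 25.3 CPM in Ls174 (2.58 ± 0.44, adjusted p = 0.00606). SQSTM1, which encodes the autophagy receptor p62, rose from 321, 164 and 371 CPM to 1400, 1010 and 1220 CPM in HepG2 and from 128, 192 and 191 CPM to 559, 567 and 526 CPM in Ls174 (1.89 ± 0.23, adjusted p = 0.000766), and was the only one of 27 lysosome and autophagy genes tested that passed. VEGFA, the vascular growth factor, rose by 1.46 ± 0.29 (adjusted p = 0.0163), and DDIT4 and NDRG1 were the other hypoxia targets that rose (1 target fell with libraries scaled by their totals alone). VEGFA and DDIT4 kept their call without any 1 library, and NDRG1 lost it without HepG2 HME 2, HepG2 HME 3, HepG2 control 3 or Ls174 HME 2 (adjusted p up to 0.0729). Of the 10 genes that the study followed by RT-qPCR, which were picked on these samples and are not independent evidence of direction, 4 were shared higher genes (NFKBIA, GADD45A, VEGFA and CDKN1A). By RT-qPCR the study reports several p53 targets as raised in HepG2 and did not see that trend in Ls174. It also reports several other genes as lowered in both lines. The call here is over both lines together and not in Ls174 alone. NFKBIA and GADD45A lost their call without HepG2 HME 3 or HepG2 control 3 (adjusted p up to 0.059 and 0.0541), and CDKN1A kept its call only without HepG2 control 2, Ls174 control 2 or Ls174 control 3 (up to 0.0866). BRCA1 (−1.34), PRKDC (−1.35) and BBC3 (1.64) did not pass, with adjusted p of 0.0929, 0.0669 and 0.144. In edgeR all 10 had an unadjusted p under 0.05 over both lines (2672 of all 13040 genes tested did), 5 higher and 5 lower. Of the 10, 5 were negative in both lines, and DESeq2 called 4 higher and 3 lower.

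Of 24 genes of cadherins, laminins and matrix tested, 7 fell and none rose, with a median of −0.86 over both lines, −0.48 in HepG2 and −1.04 in Ls174. HSPG2, which encodes perlecan, a heparan sulphate proteoglycan of basement membranes, went from 26.1, 52.3 and 40.0 CPM to 5.54, 8.48 and 7.81 CPM in HepG2 and from 34.4, 29.2 and 24.3 CPM to 6.19, 8.89 and 5.59 CPM in Ls174. Treated libraries were well below the controls in both lines, which started at like levels (−2.25 ± 0.26, adjusted p = 0.00046). HSPG2 was counted in 25 regions, and 98.6% of its counts came from chr1:22148541-22149808 on the minus strand (GRCh37), of which 84.5% is annotated as UTR.

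AGRN, which encodes agrin, fell from 85.5, 213 and 80.0 CPM to 22.6, 39.2 and 40.8 CPM in HepG2 and from 209, 72.9 and 71.4 CPM to 18.6, 18.1 and 17.4 CPM in Ls174 (−2.29 ± 0.35, adjusted p = 0.00276). The same reads are listed for RP11-54O7.14, and in each line the deviating control was the highest of its group. The laminin chains LAMA5 and LAMB2 fell by 1.44 ± 0.22 (adjusted p = 0.00269) and 1.52 ± 0.27 (adjusted p = 0.00692), and nearly all LAMA5 counts (98.1%) overlap ADRM1 on the other strand. CELSR2, a cadherin of planar polarity, had the lowest log2 fold change of the shared genes (−3.23 ± 0.59, adjusted p = 0.00879), although its HepG2 controls were as low as 3.50 CPM. NID1 and COL18A1, 2 further basement membrane genes, completed the 7, and CDH1, E-cadherin, was at −0.82 (adjusted p = 0.194). AGRN, CELSR2, HSPG2, LAMA5 and LAMB2 kept their call without any 1 library, and COL18A1 and NID1 lost theirs in some fits, among them those without HepG2 control 2 or HepG2 HME 3 (adjusted p of COL18A1 up to 0.0819). Without HepG2 HME 2, 6 of the list were called, and without both deviating controls 8.

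**Figure D3:**
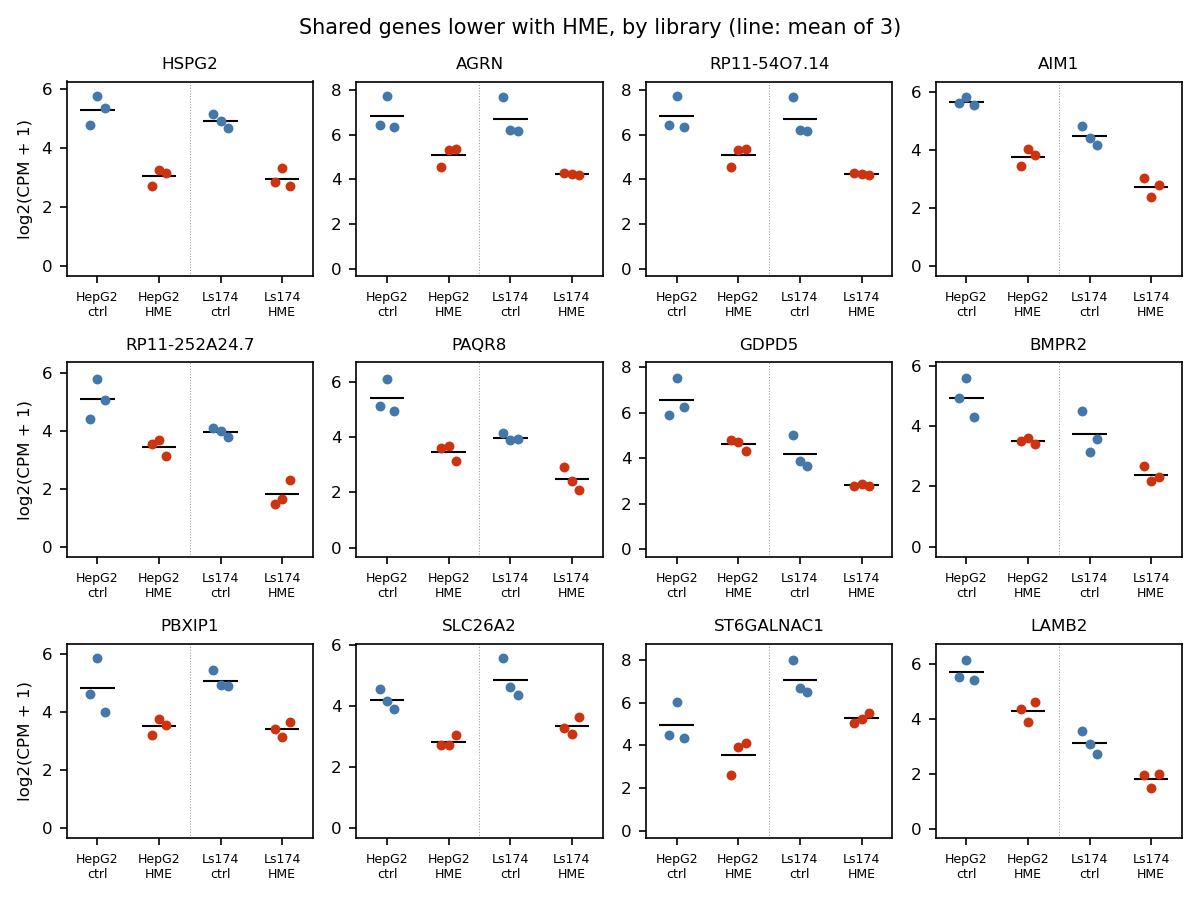
Level of 12 shared lower genes, as log2(CPM + 1) on the y axis, in each library of the 4 groups on the x axis (blue, control, red, HME; points, libraries; line, mean of 3). In every panel the HME points lie below the control points of the same line, as for HSPG2 at 5.54 to 8.48 CPM against 26.1 to 52.3 CPM in HepG2. That separation was fixed by the choice of genes apart in both lines. AGRN and RP11-54O7.14 show the same reads.

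Folding and glycosylation genes of the ER fell in part. Of 24 ER chaperones and unfolded protein response genes tested, 5 fell and 2 rose (HERPUD1 and SEC24D), with a median of −0.41 over both lines and −0.58 in Ls174. HSP90B1, the ER form of HSP90, went from 303, 489 and 248 CPM to 150, 209 and 191 CPM in HepG2 and from 384, 306 and 303 CPM to 83.8, 68.3 and 95.3 CPM in Ls174. The groups were apart in both lines (−1.46 ± 0.26, adjusted p = 0.00679). HYOU1 and PDIA4, a chaperone and a disulphide isomerase of the ER, fell by 1.48 ± 0.27 and 1.41 ± 0.27 (adjusted p = 0.00868 and 0.0113), and CALR, calreticulin, and SEL1L, a part of ER-associated degradation, were the other 2. HSP90B1, HYOU1 and PDIA4 kept their call without any 1 library, and leaving out Ls174 HME 2 lost the other 4 of the 7 (adjusted p of SEC24D up to 0.0834).

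Of 31 genes of N-glycan assembly and transfer tested, 4 fell and none rose: RPN2, STT3A and STT3B, subunits of the oligosaccharyltransferase, and GANAB, a subunit of glucosidase II. All 4 lost their call when Ls174 HME 2 or Ls174 HME 3 was left out (adjusted p of RPN2 up to 0.0853). UGGT1, which senses misfolded glycoproteins, and MLEC, a lectin that binds glucosylated glycans, were chosen after their values were seen. UGGT1 fell by 1.78 ± 0.33 (adjusted p = 0.0101) and MLEC by 1.33 ± 0.20 (adjusted p = 0.00269). Of 24 cholesterol synthesis genes tested 1 fell and none rose, and SQLE missed the limit at −1.37 (adjusted p = 0.0505). With libraries scaled by their totals alone 5 fell, without both deviating controls 5 and with DESeq2 7. In edgeR 8 had an unadjusted p under 0.05, all lower, against 2672 of all 13040 genes tested in either direction. The list median was −0.02 in HepG2 and −0.57 in Ls174.

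**Figure D4:**
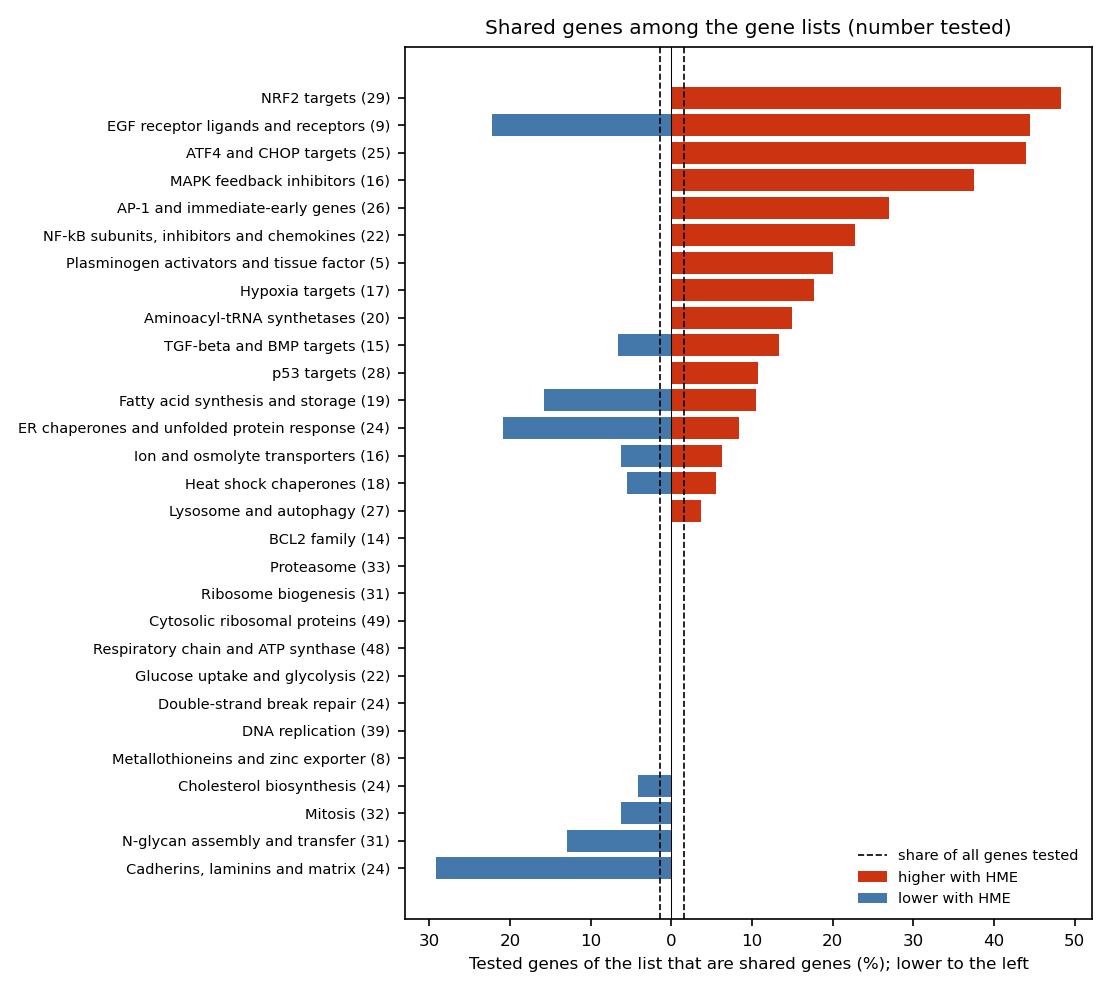
Percent of the tested genes of each gene list (y axis, with the number tested) that are shared genes, higher ones as red bars to the right and lower ones as blue bars to the left, with dashed lines at the shares over all genes tested. The NRF2 list has 14 shared higher genes of 29 and the matrix list 7 shared lower genes of 24.

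Lists of the cell cycle and of the translation and respiration machinery held few shared genes. PLK1 and MKI67 fell among 32 mitosis genes (list median −0.43), and both lost their call without any one of the treated HepG2 libraries, HepG2 control 1, HepG2 control 3, Ls174 HME 2 or Ls174 HME 3 (adjusted p of MKI67 up to 0.122). MKI67 also lost it without Ls174 HME 1, Ls174 control 2 or Ls174 control 3. None of 39 DNA replication genes passed, with a median of −0.41 over both lines, −0.74 in HepG2 and −0.10 in Ls174. Of them 27 were negative in both lines, against 3942 of all 13040 genes tested. In that list 16 had an unadjusted p under 0.05 in edgeR, all lower, and 2 fell with libraries scaled by their totals alone, 2 without both deviating controls and 3 with DESeq2. The mitosis list had 7 lower with DESeq2 and 7 without both deviating controls. For comparison, 2672 of all 13040 genes tested had an unadjusted p under 0.05 in edgeR. DESeq2 also called more shared genes than edgeR over the whole set. None passed in edgeR among 24 genes of double-strand break repair (5 at an unadjusted p under 0.05, 3 called by DESeq2), 22 of glycolysis (5 and 2), 48 of oxidative phosphorylation (7 and 0), 49 ribosomal protein genes (10 and 6), 31 of ribosome biogenesis (9 and 2), 33 of the proteasome (5 and 2), 14 of the BCL2 family (5 and 2) and 8 metallothioneins (3 and 1). Heat shock chaperones had HSPA1A higher and HSPB1 lower among 18, and both lost their call without Ls174 HME 1 or Ls174 HME 2. HSPB1 also lost it without Ls174 HME 3, and HSPA1A without any 1 HepG2 library or Ls174 control 2 (adjusted p up to 0.127). HSPA1A has a near-identical copy, so its reads are uncertain. Of the other lists, TGF-beta and BMP targets had 2 higher and 1 lower of 15, plasminogen activators and tissue factor 1 higher of 5, and ion and osmolyte transporters AQP3 higher and SLC12A2 lower of 16. AQP3 lost its call without HepG2 control 3 (adjusted p = 0.0538), and SLC12A2 without any one of the treated Ls174 libraries or HepG2 HME 3 (up to 0.0875). In all, 87 of the 388 genes are on at least 1 of the 30 lists, which hold 719 genes.

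Of 42 genes tested that are annotated as snRNA, the RNA components of the spliceosome, 18 rose and none fell (42.9%), against 160 higher and 169 lower of 11308 protein-coding genes (2.91%). The median snRNA change was 2.26 over both lines, 2.71 in HepG2 and 1.05 in Ls174. The summed level of the 18 went from 77.4, 90.9 and 106 CPM to 1650, 889 and 1110 CPM in HepG2 and from 6.88, 9.93 and 25.6 CPM to 59.0, 93.9 and 55.2 CPM in Ls174. Every treated library was above every control of its line. The library kit reads the 3′ ends of polyadenylated RNA, and mature snRNAs carry no poly(A) tail.

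RNU2-2P, a gene of the U2 family, was at 7.26, 1.25 and 3.23 CPM in HepG2 controls and 368, 74.6 and 392 CPM with HME, and at 0, 1.55 and 4.86 CPM in Ls174 controls and 16.8, 21.3 and 15.1 CPM with HME. The groups were apart in both lines (4.63 ± 0.72, adjusted p = 0.00284). RNVU1-18, a U1 variant, rose in HepG2 from 6.99, 8.10 and 6.47 CPM to 158, 96.9 and 73.3 CPM, and in Ls174 from at most 0.621 CPM to 2.55, 3.91 and 4.60 CPM (3.64 ± 0.33, adjusted p = 5.98e-05). Counts listed for RN7SK, the RNA that holds the elongation factor P-TEFb inactive, rose by 3.78 ± 0.64 (adjusted p = 0.00577). With RNY1 and RNY3 it made 3 of 19 genes of the miscellaneous RNA class. Of 84 snoRNA genes, many of which guide the modification of ribosomal RNA, listed counts rose for 8 and fell for 1, with SNORD13 at 4.59 ± 0.64 (adjusted p = 0.00195). None of 34 miRNA genes passed in edgeR (6 at an unadjusted p under 0.05, against 2672 of all 13040 genes tested). Of the 18 snRNA genes 13 kept their call without any 1 library and 5 (RNU6-1, RNU6-2, RNU6-6P, RNU4ATAC and RNU2-59P) lost it without any one of HepG2 HME 2, HepG2 HME 3, HepG2 control 1, HepG2 control 3 and Ls174 HME 2, and some of them also without others, with an adjusted p of RNU6-1 of up to 0.148. RNVU1-16 passed the test but is not among the 18, since it rose from 0 to 4.60 to 4.80 CPM in HepG2 and had a single count in Ls174. RNVU1-15 and RNVU1-19 passed as well (adjusted p = 0.035 and 0.0352) but did not have the same sign in both lines.

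**Figure D5:**
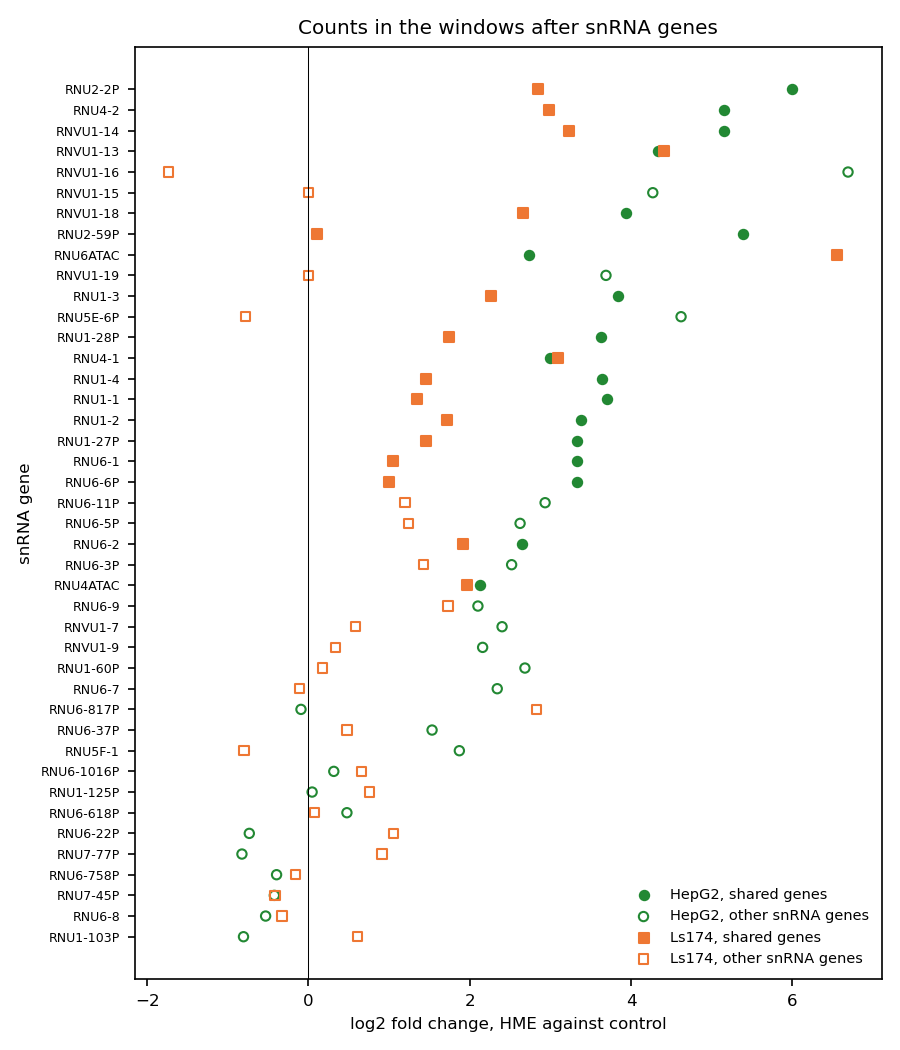
Log2 fold change with HME of the 42 tested snRNA genes in HepG2 and in Ls174, with the 18 shared genes as filled symbols and the others as open ones. Values are mostly above 0 (29 genes positive in both lines, 3 negative in both), with medians of 2.71 in HepG2 and 1.05 in Ls174. Of all 13040 genes tested, 3517 were positive and 3942 negative in both lines.

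None of the 18 snRNA genes was counted over the RNA itself. Each was counted in a single window of 197 bases that begins at the base right after the annotated gene end, so what was counted are reads that touch bases downstream of the annotated RNA. The same was true of all 42 tested snRNA genes. It was also true of the 3 shared genes of the miscellaneous RNA class and of 8 shared snoRNA genes other than SNORD13. SNORD13 was counted in 1 region of 197 bases, with 0% of it annotated as exon. The first 30 bases of these windows are printed for 5 of the genes because they show what was counted. In 4 of them the capitals mark a match to the snRNA 3′ box, the signal for 3′ end formation, whose search was chosen after seeing the data. The windows start on GRCh37 at chr1:16993250-16993279 (minus strand, RNU1-3), chr1:17067175-17067204 (plus strand, RNU1-4), chr1:16840587-16840616 (minus strand, RNU1-1), chr1:17222639-17222668 (plus strand, RNU1-2) and chr12:120729536-120729565 (minus strand, RNU4-2).
RNU1-3: actttctggaGTTTCAAAAACAGAccgtac
RNU1-4: actttctggaGTTTCAAAAACAGAccgtac
RNU1-1: actttctggaGTTTCAAAAACAGActgtac
RNU1-2: actttctggaGTTTCTAAAAGTAGActgta
RNU4-2: ctgaatttttaaaagtctaaagaaaagggt
The box was found in the first 30 bases in 4 of the 18 shared snRNA genes and in 0 of the 24 other tested ones. The 4 are the U1 genes printed above, which are close to each other in sequence. These counts therefore do not compare shared with other snRNA genes. The first 30 bases of RNU1-3 and RNU1-4 are identical, and so are those of RNU1-27P and RNU1-28P, so the share of each copy in the reads is uncertain. RNU1-1 rose from 7.53, 16.8 and 14.5 CPM to 212, 159 and 123 CPM in HepG2 and from 1.48, 0.621 and 3.07 CPM to 3.64, 5.69 and 4.60 CPM in Ls174 (2.88 ± 0.45, adjusted p = 0.00323).

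Some of the shared genes are not independent entries. In 5 pairs both members were counted on the same reads (AGRN with RP11-54O7.14, SRXN1 with an overlapping clone-named gene, PTGES with AL590369.1, LNPEP with AC008865.1 and SCARNA17 with SCARNA18), which leaves 383 genes when each set is counted once. For 37 genes most counts fell in regions that overlap a gene on the opposite strand, and the strand setting of the counting is not given in the sources used here. In all 12 fits that left out 1 library, 114 of the 388 genes (81 higher, 33 lower) remained called, and DESeq2 called all 388.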

How the data were processed

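RNA was measured by 3′ mRNA sequencing on an Ion Torrent instrument in 12 libraries, 3 biological replicates of untreated and of HME-treated HepG2 and Ls174 cells per the study's methods. The authors deposited raw read counts per 3′ region for each library, counted with metaseqR2 after alignment to hg19, with no normalization. The submitters' processing notes name HISAT2, Bowtie2, Trimmomatic and the builds hg19 and GRCh37. Region counts were summed per gene id over 57736 ids, of which 27326 had a count, and 13040 passed edgeR's filterByExpr over the 4 groups. Libraries were scaled by TMM, and the quasi-likelihood F test of edgeR 4.0.16 (R 4.3.3, limma 3.58.1) gave the HME effect with the cell line as an additive term. A second fit with 4 group means gave the effect in each line, their difference (interaction) and the difference between untreated lines. P-values were adjusted by Benjamini-Hochberg over all genes tested, with a limit of 0.05. The binomial test of the study was not used. Values of some single genes are not reported here.

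The shared genes, gene lists and tests were chosen with earlier results of these data known, and the lists are described by counts and medians only. Named genes were the 12 higher and 12 lower genes apart in both lines with the largest smaller change of the lines, the shared genes on a list, up to 4 other genes per list with the lowest p, the RT-qPCR genes, the genes nearest the limit and the genes of opposite sign with the lowest interaction p. A fold against a group at 0 used a floor of 3 counts over the group. Listed symbols for 4 genes were matched by the alias in the files. Library totals of 1790841 to 3656662 counts set the precision, and floors cover counting error only, since reads carried no molecular identifiers. Samples with the same replicate number were not paired, as correlations of their deviations from the group means were between −0.15 and 0.0729. Alternatives were DESeq2 1.42.0, other scalings and filters, a replicate block, the study's threshold of p under 0.05 with a log2 limit of 0.58, a minimum of 10 counts, a call in each line, and leaving out libraries. Scripts were tested on simulated data, and Python 3.11.15 with pandas 2.3.3, numpy 2.4.6 and matplotlib 3.10.9 made the summaries and figures. Annotation was GENCODE v44lift37 on GRCh37. Promoters were from RefSeq GRCh38.p14, with 270 shared and 9342 tested genes matched by official symbol, or by a synonym unique on the gene's chromosome, and shared promoters counted once.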

Additional observations from a re-analysis of the deposited data

Results flagged for a closer look

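The HME effect differed between the lines for 12 of the shared genes by the interaction test of edgeR (Benjamini-Hochberg over all genes tested), and for 2 called genes of opposite sign. Of the 12, 11 are described here. The values are the log2 change in Ls174 minus that in HepG2. Among immediate-early and related genes the difference was −4.82 for EGR1 (adjusted p = 0.00061), −4.03 for ATF3 (0.0339), −3.80 for IER3 (0.00143), −2.60 for HIVEP2 (0.0276), −2.74 for PIM3 (0.00793) and −1.81 for TRIB1 (0.0315). SAT1, the enzyme that starts polyamine breakdown, had −1.98 (0.0110), with 144, 154 and 152 CPM against 701, 740 and 724 CPM in HepG2 and 191, 177 and 177 CPM against 233, 214 and 219 CPM in Ls174. The long non-coding RNA LINC00152 had −2.46 (0.00643), AQP3, an aquaporin that also passes glycerol, −2.77 (0.0440), and RSRC2 −1.71 (0.0462).

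SLC12A2, which encodes the cotransporter NKCC1, was the only lower gene among the 12, with −2.12 (0.0276). It fell in Ls174 from 829, 630 and 632 CPM to 110, 119 and 133 CPM and was at 21.5, 26.8 and 14.1 CPM in HepG2 controls and 15.4, 17.3 and 13.8 CPM with HME. The 2 genes of opposite sign were RASD1 with −7.21 (0.0169) and DUSP1 with −4.01 (0.0276).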

How the results depend on the processing

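The 388 shared genes (207 higher, 181 lower, 12 with a difference between the lines) depended on the threshold and the tool. DESeq2 gave 1077 (517, 560, 78), the study's threshold of p under 0.05 with a log2 limit of 0.58 gave 2147 (882, 1265, 22), and every gene with a count gave 963 (471, 492, 87). A call in each line alone gave 22 (13, 9, 1). The replicate block gave 119 (84, 35, 1), of which 115 were among the 388, but the replicate numbers do not pair these samples. Leaving out both deviating controls gave 761 (374, 387, 64). The mean of both lines in the 4-group fit gave 548 genes and 22 with a difference between the lines, scaling by library totals gave 309 lower genes (34.8% higher, against 53.4%), and a minimum of 10 counts in every library gave 115 higher genes. Upper-quartile scaling, genes that pass the filter in each line (299) and shared reads counted once (383) kept the total within 1.5 times, and the last 2 were added after seeing the data, as were the list counts without single libraries. Leaving out 1 library at a time gave 160 to 458 shared genes, 105 to 258 higher, 45 to 201 lower and 2 to 30 with a difference between the lines. The total moved by over 1.5 times without HepG2 control 3 (215), HepG2 HME 1 (191), HepG2 HME 2 (191), HepG2 HME 3 (168), Ls174 HME 1 (246), Ls174 HME 2 (160) or Ls174 HME 3 (197). Of 102 named shared genes none reversed, 102 kept their call with DESeq2, 94 with library totals, 100 with the 4-group mean, 101 without both deviating controls, 56 with the replicate block and 55 in every fit without 1 library. The cause of these changes was not tested.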

Other observations

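The following shared genes are outside the lists and were chosen after their values were seen. S100P, a calcium-binding protein, went from 177, 166 and 266 CPM to 815, 560 and 602 CPM in HepG2 and from 303, 355 and 349 CPM to 1180, 1220 and 1020 CPM in Ls174, with nearly equal changes of 1.70 and 1.76 on the log2 scale (over both lines 1.73 ± 0.20, adjusted p = 0.00046). PCK1, the enzyme that commits carbon to gluconeogenesis, went from 10.8, 3.74 and 10.9 CPM to 84.7, 145 and 174 CPM in HepG2 and from 64.9, 205 and 185 CPM to 709, 382 and 394 CPM in Ls174 (3.93 and 1.70 on the log2 scale, over both lines 2.73 ± 0.46, adjusted p = 0.00546). TSC22D3, a glucocorticoid-inducible leucine zipper protein, rose by 1.74 ± 0.28 over both lines (2.62 and 1.16, adjusted p = 0.00420).

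Of the lower genes, 4 that no list held were also chosen after their values were seen, and no list of cell junction genes was tested. ALCAM, an adhesion molecule of the immunoglobulin family, went from 53.5, 85.3 and 69.9 CPM to 37.2, 38.5 and 24.6 CPM in HepG2 and from 271, 187 and 238 CPM to 46.3, 66.1 and 75.9 CPM in Ls174 (−1.47 ± 0.24, adjusted p = 0.00388). The tight junction genes CLDN1, CLDN2 and CXADR fell by 1.19, 1.87 and 1.19 on the log2 scale (adjusted p = 0.0182, 0.0200 and 0.0200), and each lost its call in some fits without 1 library, with adjusted p of up to 0.0552, 0.0588 and 0.0606. PLAU, the urokinase gene, rose in HepG2 from 5.65, 2.49 and 4.85 CPM to 62.9, 65.8 and 108 CPM but had no count in Ls174, so it is outside the shared genes.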
